A study of Mus musculus with 27 samples.

Results

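The insulin-like growth factor (IGF) system was followed through 9 genes in hepatic stellate cells (HSCs), the vitamin A-storing pericytes of the liver sinusoid. The genes were the ligand Igf1, its receptor Igf1r and the binding proteins Igfbp1, Igfbp2, Igfbp3, Igfbp4, Igfbp5, Igfbp6 and Igfbp7. They were chosen by name as members of the family and are 9 of the 53379 genes of the count table, and all 9 were among the 18758 genes that passed the filter on low counts. The 27 RNA sequencing libraries came from male Balb/c mice, whose HSCs were isolated from perfused livers by sorting on ultraviolet fluorescence and lysed without culture. Healthy mice (n = 4), aged 10 to 12 weeks, were not injected. Mice of the acute groups, also aged 10 to 12 weeks, received 1 intraperitoneal injection of carbon tetrachloride (CCl4), a hepatocyte toxin, at 0.5 µL per g of body weight in mineral oil, and HSCs were taken 24 h (n = 3) or 72 h (n = 4) later or on day 7 (n = 4). Mice of the chronic groups, aged 8 to 10 weeks at the start, received 8 injections of the same dose over 4 weeks, and HSCs were taken 24 h, 72 h or 14 d after the last of them (n = 4 each). Age at isolation was thus not matched to healthy mice, and effects of age and injury cannot be told apart in the chronic groups. None of these 7 groups received mineral oil alone, so an effect of CCl4 and an effect of the injection cannot be told apart, and cells without ultraviolet fluorescence were outside the sorting gate.

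IGF1 is a peptide hormone and local growth factor that is made in the liver under the control of growth hormone and acts through IGF1R, a receptor tyrosine kinase related to the insulin receptor. IGFBP1 to IGFBP6 are secreted proteins that bind IGFs with high affinity, carry them in blood and tissue and limit or direct their access to the receptor, and proteases such as PAPP-A free the ligand by cutting the binding protein. IGFBP7 is a related secreted protein with low affinity for IGFs. Hepatocytes are known as the main hepatic source of circulating IGF1 and of IGFBP1 and IGFBP2, and macrophages also transcribe Igf1.

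All positions are on the GRCm38 mouse genome with the GENCODE M21 annotation, which lists each of the 9 genes as protein coding. Igf1 lies on chromosome 10 from 87858265 to 87937042 on the plus strand, and Igf1r on chromosome 7 from 67952827 to 68233668 on the plus strand. Igfbp1 (chromosome 11, 7197782 to 7202546, plus strand) and Igfbp3 (chromosome 11, 7206086 to 7213923, minus strand) point towards each other, 3.54 kb apart and with 0 protein-coding genes between them. Igfbp2 (chromosome 1, 72824503 to 72852474, plus strand) and Igfbp5 (chromosome 1, 72857932 to 72874884, minus strand) do so at a distance of 5.46 kb. Igfbp4 (chromosome 11, 99041244 to 99054392, plus strand), Igfbp6 (chromosome 15, 102144362 to 102149511, plus strand) and Igfbp7 (chromosome 5, 77349240 to 77408041, minus strand) stand alone. Igfbp7 shares 85 exonic bases with Polr2b on the opposite strand. Since the strand setting of the counting is not given in the sources used here, reads of that overlap cannot be assigned, but Polr2b held 31198 counts over all libraries and Igfbp7 1457817.

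The neighbours Igfbp1 and Igfbp3 differed in opposite directions at chronic 24 h and Igfbp4 had the firmest differences of the family, so the 250 bases before the RefSeq start of these genes are shown (GRCm38.p6, written 5′ to 3′ on the strand of the gene). Capitals mark matches to any of 6 motifs searched on both strands. These were TATAAA (a form of the TATA box), GGGCGG (bound by SP1) and TTCNNNGAA (bound by STAT factors). The others were CAAAACA (bound by FOXO factors), TGANTCA (bound by AP-1) and GGAATG (bound by TEAD factors).
Igfbp1, chr11:7197537-7197786, plus strand: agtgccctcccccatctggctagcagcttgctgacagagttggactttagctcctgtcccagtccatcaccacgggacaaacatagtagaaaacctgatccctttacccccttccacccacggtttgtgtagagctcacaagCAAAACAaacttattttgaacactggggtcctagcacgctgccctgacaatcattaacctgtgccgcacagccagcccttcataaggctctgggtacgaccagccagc
Igfbp3, chr11:7213924-7214173, minus strand: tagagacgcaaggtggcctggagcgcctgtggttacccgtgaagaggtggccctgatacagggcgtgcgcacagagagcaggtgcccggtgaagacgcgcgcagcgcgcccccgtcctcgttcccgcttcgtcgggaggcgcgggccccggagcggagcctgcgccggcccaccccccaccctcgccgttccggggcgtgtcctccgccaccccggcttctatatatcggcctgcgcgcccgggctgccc
Igfbp4, chr11:99040994-99041243, plus strand: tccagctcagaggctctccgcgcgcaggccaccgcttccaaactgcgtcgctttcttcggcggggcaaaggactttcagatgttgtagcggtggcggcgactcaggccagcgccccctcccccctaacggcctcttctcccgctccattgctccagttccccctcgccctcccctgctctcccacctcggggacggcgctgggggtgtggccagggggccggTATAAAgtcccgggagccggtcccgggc
The Igfbp1 window held CAAAACA from position -108 to -102, counted from -1 at the base before the start, a motif found in 5.6% of 32851 windows of the same length. Igfbp4 had TATAAA from -28 to -23, a motif found in 12.4% of windows, and the Igfbp3 window held none of the 6. Variants of TATAAA were not searched, so the run tatatat in the Igfbp3 window is not marked. The other motifs occurred in 32.7% (GGGCGG), 7.0% (TTCNNNGAA), 6.7% (TGANTCA) and 12.6% (GGAATG) of windows. All 9 members were matched in the RefSeq table, with 10 windows. The window listed for Igf1 lay wholly inside a GENCODE exon of Igf1 and is not shown. A match is a run of letters and not evidence of binding.

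Total counts per library ranged from 6.31 M to 13.05 M (M, 1000000 counts). Libraries of chronic 14 d, together with replicates 1 and 2 of chronic 24 h and chronic 72 h, formed a class of 8 with at most 7.58 M, and the other libraries began at 10.79 M. Chronic 14 d held libraries of the lower class only and healthy of the higher class only, so this comparison can be adjusted for depth only through the chronic 24 h and 72 h groups, which held 2 libraries of each class. All 8 stellate markers used (Lrat, Des, Reln, Pdgfrb, Colec11, Hgf, Ecm1 and Hand2) had counts in every group. Their summed level was 17010 to 23683 CPM (counts per 1000000) in healthy and 10322 to 15692 at acute 24 h. It was 8920 to 12793 at chronic 14 d and 6599 to 9878 in the other 4 groups, and every healthy library lay above all others. Its largest parts in healthy, Ecm1, Colec11 and Reln, fell from means of 9196, 3285 and 2614 CPM to 2388, 886 and 1022 CPM at acute 72 h. Lrat had means of 1792 CPM in healthy and 1795 CPM at acute 72 h. Des rose from 536 CPM in healthy to 965 CPM at acute 24 h, and Pdgfrb from 1051 to 2148 CPM at chronic 24 h. Of these markers 4 were called lower than in healthy at chronic 24 h, at chronic 72 h and at acute 7 d, and 1 was called higher at chronic 24 h. The part of this shift in the members' differences was not tested. Markers of other liver cells were present as well and moved between groups. The sum of 10 hepatocyte markers ranged from 144 to 322 CPM at acute 24 h, where Fabp1 was at 0, and from 2366 to 4236 at chronic 72 h. That of 10 macrophage markers ranged from 132 to 559.5 CPM in healthy and from 4072 to 10432 at acute 7 d, where Lyz2 alone had a mean of 5400 CPM. The sum of 8 markers of mesothelial cells and portal fibroblasts was 18.1 to 41.3 CPM in healthy and 320 to 439 CPM at chronic 24 h. Between these groups the means of Fbln2, Cd34 and Wt1 rose from 4.57, 14.7 and 4.10 CPM to 205, 87.2 and 71.7 CPM. Thy1 rose from 0.85 to 6.18 CPM. Upk3b and Gpm6a had means of 3.17 CPM each in healthy and of 2.27 and 3.65 CPM at chronic 24 h. Means of Msln and Upk1b were at most 0.387 CPM in both groups. Healthy replicate 4 stood apart from the other healthy libraries, with a hepatocyte sum of 3193 CPM against 524 to 973. Results against healthy are therefore also given without it where it decides the call. Replicate 4 was also the healthy library highest in Igf1, Igfbp1 and Igfbp2 and lowest in Igf1r. Leaving it out thus shifts differences of the former upwards and of Igf1r downwards by construction. It also leaves healthy at 524 to 973 CPM of hepatocyte markers. Libraries kept were at 1812 to 2872 CPM at acute 7 d, 1448 to 8154 at chronic 14 d and 144 to 322 at acute 24 h. In these bulk samples fewer cells of a type and less RNA per cell cannot be told apart.

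The 9 genes spanned a wide range when levels were divided by exonic length. Igfbp7 was the most abundant member in every group, with a mean of 3977 CPM per kb ± 448 (SD, n = 4) in healthy HSCs, where it ranked 8 of 53274 genes. Igfbp3 followed at 473 CPM per kb ± 102 (SD, n = 4) and rank 89, and Igfbp4 at 237 CPM per kb ± 32.97 (SD, n = 4) and rank 188. Igf1 (7.03 ± 5.88) and Igf1r (6.22 ± 2.47, both CPM per kb, SD, n = 4) were at a much lower level and did not differ beyond their spread. The higher mean of Igf1 came from healthy replicate 4 (15.8 against 2.74 for Igf1r), and Igf1r was above Igf1 in replicates 1, 2 and 3. Igfbp2 (3.03 ± 2.65), Igfbp1 (2.69 ± 3.24), Igfbp6 (1.41 ± 1.06) and Igfbp5 (1.27 ± 0.749, all CPM per kb, SD, n = 4) closed the order, and neighbours among these 4 lay within each other's spread. The sorted cells carried transcripts of 3 abundant binding proteins next to low transcript levels of ligand and receptor. The order of the leading 3 changed with injury: Igfbp4 was above Igfbp3 in every chronic 24 h library (means of 248 against 172 CPM per kb). At chronic 72 h the means were 652 against 605 without a common order. Igfbp4 was above Igfbp3 in replicates 3 and 4 and below it in replicates 1 and 2, the libraries of lower depth. The spreads of the 2 genes overlapped in both groups. At acute 24 h Igfbp4 was far below Igfbp3 (47.1 against 417).

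**Figure D1:**
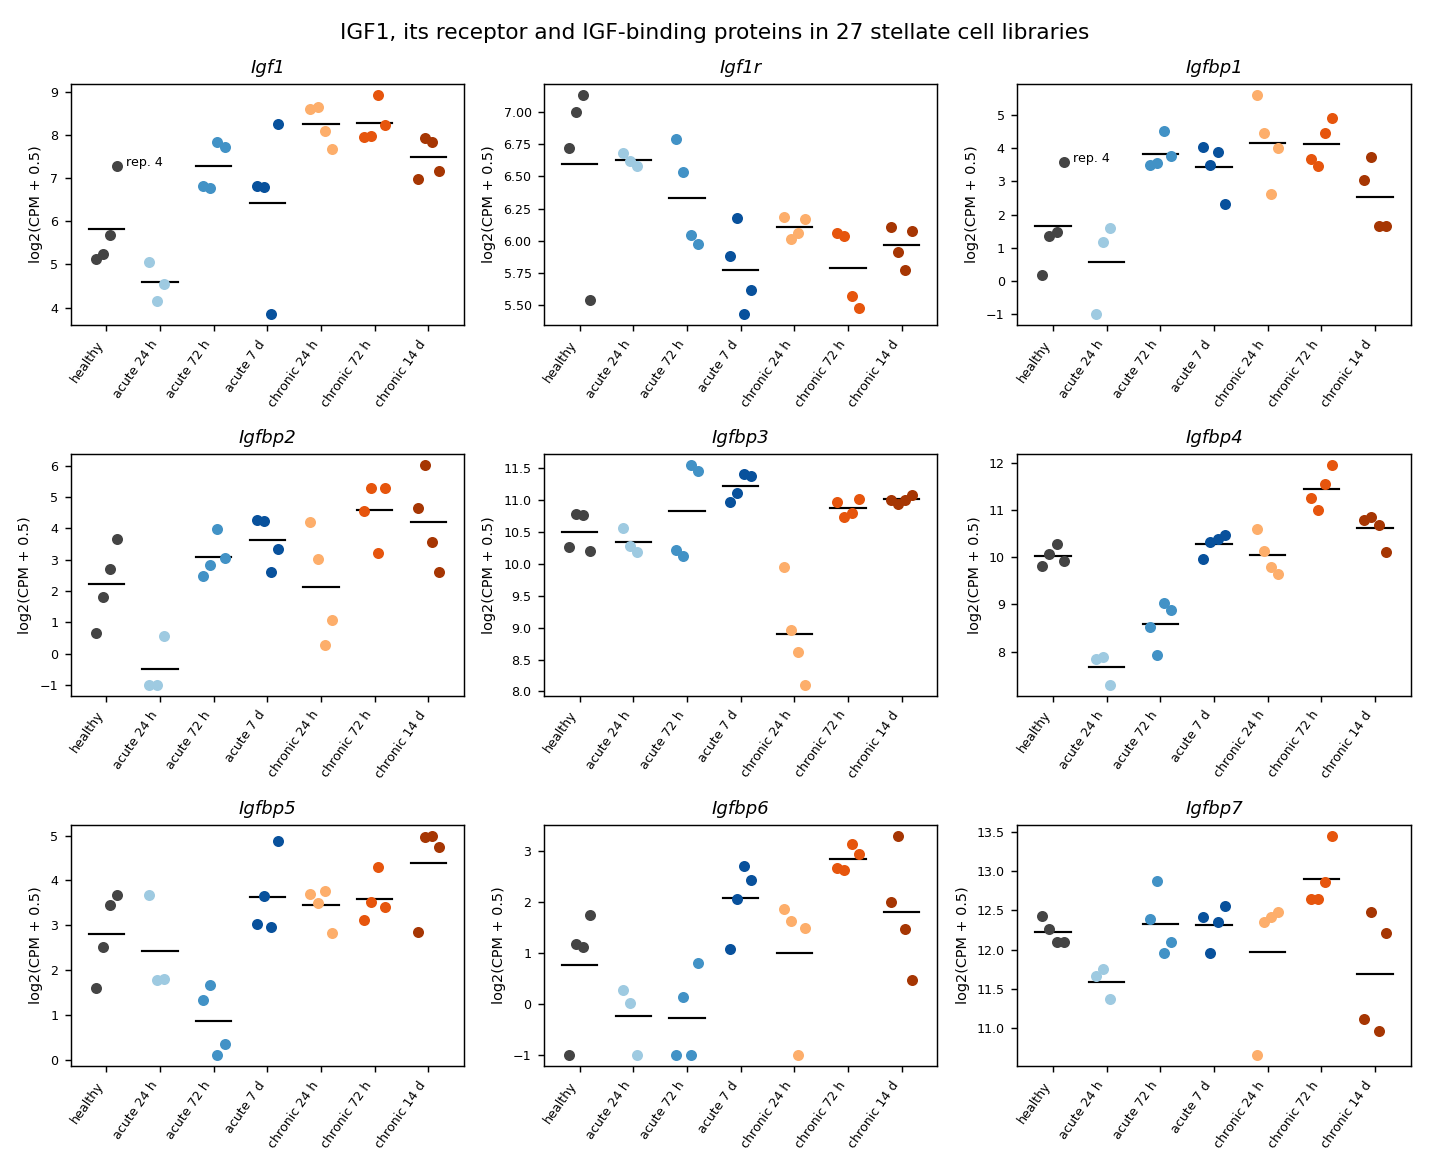
Level of each member in each of the 27 libraries as log2(CPM + 0.5), 1 point per library and a bar at the group's mean of these log values, with groups along the horizontal axis. Igfbp4 is lowest at acute 24 h (156 to 237 CPM) and highest at chronic 72 h (2057 to 3976 CPM), Igfbp3 is lowest at chronic 24 h (274 to 985 CPM), and healthy replicate 4 lies above the other healthy libraries in Igf1 (156 CPM) and Igfbp1 (11.4 CPM).

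Igf1, the ligand, was higher after the repeated injury than in healthy HSCs. In healthy libraries it was at 34.3, 37.1, 51.0 and 156 CPM, the last value in replicate 4. At chronic 24 h it was at 391, 400.3, 271 and 205 CPM, and at chronic 72 h at 248, 251, 490.0 and 299.7 CPM. Every library of these chronic groups lay above every healthy library. The summed level of macrophage markers was 522 to 3494 CPM at chronic 24 h and 934 to 2473 CPM at chronic 72 h, against 132 to 559.5 CPM in healthy. That of mesothelial and portal fibroblast markers was 320 to 439 CPM and 146 to 305 CPM in these groups, against 18.1 to 41.3 CPM. The part of either in the result was not tested. The difference of Igf1 from healthy was 2.18 ± 0.59 (log2 fold change ± SE) at chronic 24 h, or 4.54-fold, with an adjusted p of 0.00711 from edgeR's quasi-likelihood test, and 2.21 ± 0.59 at chronic 72 h, with an adjusted p of 0.0104. Without healthy replicate 4 these differences were 2.96 and 2.98. Within the libraries of higher depth, which leave 2 at chronic 24 h, the difference at 24 h was 1.78 with an adjusted p of 0.104. At chronic 14 d Igf1 was at 126, 245, 227 and 143 CPM, which overlapped with healthy replicate 4, and the difference of 1.41 ± 0.58 had an adjusted p of 0.139. Without that library it was 2.18 with an adjusted p of 0.0179.

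After a first injury Igf1 took another course. It was at 32.8, 17.3 and 22.8 CPM at acute 24 h, each below every healthy library, a difference of -1.52 ± 0.65 with an adjusted p of 0.075, which became -0.75 without healthy replicate 4. At acute 72 h it was at 112, 109.5, 228 and 211 CPM, and at acute 7 d at 113, 111, 13.8 and 306 CPM. These groups were not called against healthy with all libraries (1.25 and 0.96 on the log2 scale, adjusted p of 0.129 and 0.243). Both were called without healthy replicate 4, at 2.02 and 1.73 with adjusted p of 0.0165 and 0.0317. Since that library had the highest healthy Igf1, its removal raises both differences by construction. Acute 7 d replicate 3, at 13.8 CPM, fell below all acute 24 h libraries, and it was also the library with the highest macrophage marker sum (10432 CPM). The part of macrophage RNA in Igf1 was not tested. From acute 24 h to acute 7 d Igf1 rose by 2.48 ± 0.67 (adjusted p 0.0053) with that overlap, and by 2.86 without replicate 3.

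Igf1r, the receptor, differed by less than 2-fold in every comparison with all libraries. It was at 105, 127, 139.7 and 46.0 CPM in healthy libraries, the lowest value again in replicate 4, and between 42.6 and 110.1 CPM in all injured and recovered libraries. The 3 acute 24 h libraries were close together at 102, 97.7 and 95.1 CPM. No comparison passed both criteria, since the differences with an adjusted p below 0.05 were smaller than 2-fold: -0.91 ± 0.25 at chronic 72 h against healthy (adjusted p 0.0103), -0.92 ± 0.25 at acute 7 d against healthy (0.00867) and -0.83 ± 0.26 from acute 24 h to acute 7 d (0.0142). Without healthy replicate 4 the first pair became -1.16 each, beyond 2-fold, with adjusted p of 0.000205 and 0.000153.

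Igfbp4, whose protein inhibits IGF action until PAPP-A cuts it, had the firmest differences of the family. Its level was 904, 1071, 1238 and 969 CPM in healthy libraries, and 230.1, 237 and 156 CPM at acute 24 h. At acute 72 h it was 368, 245, 519 and 473 CPM, so that all 7 libraries of the first 3 days lay below every healthy library. Igfbp4 fell by 2.33 ± 0.29 on the log2 scale at acute 24 h (5.03-fold lower, adjusted p 2.05e-06) and by 1.38 ± 0.25 at acute 72 h (2.61-fold lower, adjusted p 0.000333). Of 8 endothelial markers 5 were called lower and 1 higher than in healthy at acute 24 h, and 7 lower and 0 higher at acute 72 h. Their part in the fall of Igfbp4 was not tested. By acute 7 d Igfbp4 was at 994, 1287, 1342 and 1416 CPM, a difference of 0.27 ± 0.25 from healthy with an adjusted p of 0.478. The rise from acute 24 h to 7 d was 2.60 ± 0.29 (adjusted p 4.65e-07), with no overlap. Chronic 24 h libraries were at 1562, 1123, 887 and 801 CPM, around the healthy level (0.06 ± 0.25, adjusted p 0.873). At chronic 72 h Igfbp4 reached 2466, 2057, 3013 and 3976 CPM, above every other library of the series, a rise of 1.46 ± 0.25 over healthy (2.75-fold, adjusted p 0.000217). At chronic 14 d it was at 1769, 1863, 1645 and 1106 CPM (0.61 ± 0.25, adjusted p 0.132). The calls of Igfbp4 against healthy and from acute 24 h to 7 d held when each library was left out in turn, with adjusted p of at most 0.0018.

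Igfbp3, the main carrier of IGFs in blood, fell at chronic 24 h. It was at 1234, 1758, 1752 and 1173 CPM in healthy and at 1508, 1242 and 1165 CPM at acute 24 h, which overlapped (-0.18 ± 0.34, adjusted p 0.726). At chronic 24 h it was at 985, 498, 394 and 274 CPM, which all lay below the lowest healthy library, a fall of 1.46 ± 0.32 on the log2 scale (2.75-fold lower, adjusted p 0.0011). The level at chronic 72 h was 2007, 1705, 1787 and 2078 CPM, and at chronic 14 d 2059, 1975, 2059 and 2173 CPM. From chronic 24 h to chronic 14 d Igfbp3 rose by 1.94 ± 0.32 (3.84-fold, adjusted p 0.00013), with no overlap. At acute 7 d it was at 2015, 2218, 2733 and 2672 CPM, above every healthy library but short of the call (0.70 ± 0.31, adjusted p 0.108). The acute 72 h libraries fell apart into a pair at 1191 and 1112 CPM and a pair at 2999.5 and 2808 CPM. The same 2 libraries were the higher ones of that group in Igf1 (228 and 211 CPM) and the lower ones in Igf1r (65.5 and 62.5 CPM).

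Igfbp1 and Igfbp2, both known as hepatocyte products, were at low levels and varied widely within groups. Igfbp1 was at 0.634, 2.04, 2.27 and 11.4 CPM in healthy libraries and at 0, 1.73 and 2.54 CPM at acute 24 h. It was at 10.6, 11.2, 22.3 and 13.1 CPM at acute 72 h, and at 48.1, 21.1, 5.61 and 15.5 CPM at chronic 24 h. Healthy replicate 4 was the highest healthy library and lay within the range of both injured groups. Igfbp1 was called higher at chronic 24 h against healthy (2.45 ± 0.80, adjusted p 0.0232), but this call was lost without chronic 24 h replicate 1 (1.77, adjusted p 0.10), within the higher depth class (1.37, adjusted p 0.29) and without any of healthy replicates 1, 2 or 3. Without healthy replicate 4 it was 3.75, and Igfbp1 was then also called at chronic 72 h (3.47, adjusted p 0.00512), acute 72 h (3.11, adjusted p 0.00974) and acute 7 d (2.77, adjusted p 0.0167).

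Igfbp2 was at 1.09, 3.02, 5.97 and 12.3 CPM in healthy libraries, and at 0, 0 and 0.965 CPM at acute 24 h, where the only counts were 11 in replicate 3. At chronic 24 h it was at 18.0, 7.68, 0.701 and 1.60 CPM, the higher pair in the libraries of lower depth, and at chronic 14 d at 24.8, 64.5, 11.3 and 5.58 CPM. It fell at acute 24 h against healthy (-4.07 ± 1.28 on the log2 scale, adjusted p 0.0164) and rose from there to acute 7 d (5.30 ± 1.30, adjusted p 0.00247). The fall lost its call without healthy replicate 4 (-3.34, adjusted p 0.0524) and without acute 24 h replicate 1 or 2. Hepatocyte markers were set beside both genes. Igfbp1 was called higher at chronic 24 h, a call lost without chronic 24 h replicate 1. In that group 0 of the 10 hepatocyte markers were called higher than in healthy and 1 lower. At acute 24 h 8 of the 10 hepatocyte markers were called lower than in healthy and 0 higher, and from acute 24 h to acute 7 d 8 were called higher. The chronic 14 d library with the highest Igfbp2 (64.5 CPM, replicate 2) also had the highest hepatocyte sum of all libraries, 8154 CPM. Igfbp1 was at 12.7 CPM in that library, against 48.1 CPM in chronic 24 h replicate 1 at a hepatocyte sum of 2078 CPM. The part of hepatocyte RNA in these results was not tested.

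**Figure D2:**
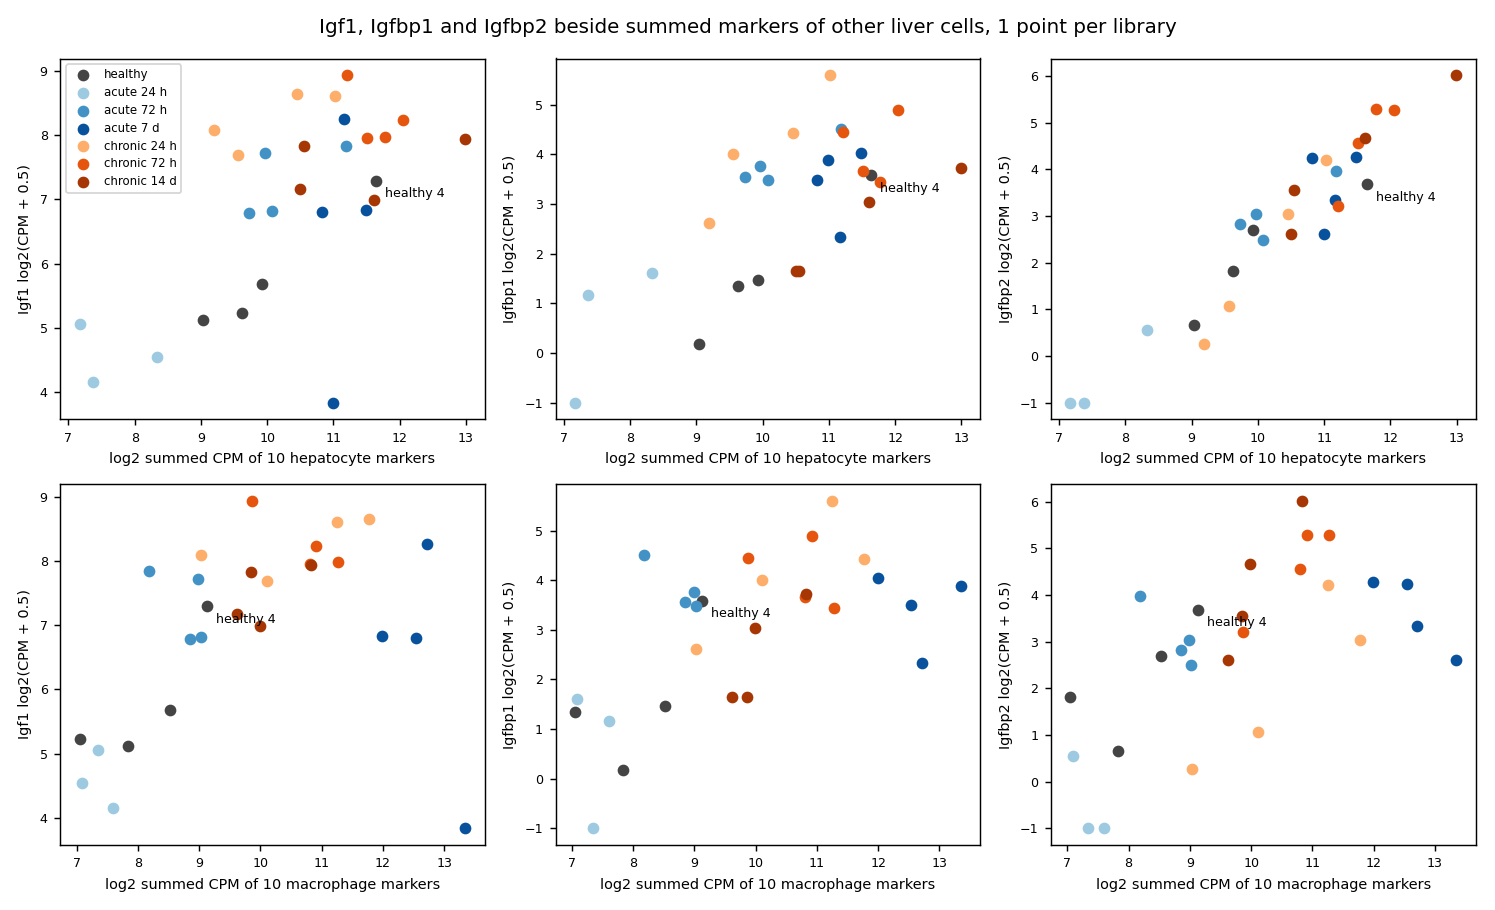
Igf1, Igfbp1 and Igfbp2 (log2(CPM + 0.5), vertical axes) against the log2 summed CPM of 10 hepatocyte markers (upper panels) and of 10 macrophage markers (lower panels), 1 point per library in the colour of its group. The points of Igfbp2 lie along a narrow band with the hepatocyte sum. They run from 0 CPM at 144 and 165 CPM of markers to 64.5 CPM at 8154 CPM. Acute 7 d replicate 3, a single library, has the lowest Igf1 (13.8 CPM) and the highest macrophage sum (10432 CPM). Lyz2 was the largest part of that sum at acute 7 d, with a mean of 5400 CPM beside 369 CPM for Clec4f.

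Igfbp5 and Igfbp6 were scarce transcripts, and their values rest on few counts. Igfbp5, known as a matrix-bound IGF-binding protein, was at 2.53, 5.25, 10.4 and 12.3 CPM in healthy libraries and at 2.03, 2.68, 0.569 and 0.774 CPM at acute 72 h. The acute 72 h libraries held 7 to 31 counts each and overlapped with healthy through acute 72 h replicate 2. Igfbp5 was lower there than in healthy by -2.33 ± 0.63 (adjusted p 0.0101). At chronic 14 d it was at 6.74, 30.8, 31.5 and 26.3 CPM, of which 3 were above every healthy library (1.64 ± 0.59, adjusted p 0.0851). This difference was called without chronic 14 d replicate 1 (1.95, adjusted p 0.0414). Igfbp6, which prefers IGF2 as its ligand, was at 0 to 2.86 CPM in healthy and at 5.86, 5.71, 8.24 and 7.12 CPM at chronic 72 h. The chronic 72 h libraries lay above all healthy libraries, yet the difference of 2.09 ± 0.99 had an adjusted p of 0.145. From acute 24 h (0.711, 0.520 and 0 CPM) to acute 7 d (1.62, 3.69, 6.03 and 4.90 CPM) it was called higher (3.27 ± 1.23, adjusted p 0.0377). That call was lost without any of the 3 acute 24 h libraries and without acute 7 d replicate 2, 3 or 4, with adjusted p of up to 0.129.

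Igfbp7 was abundant in every library and was called in 0 of the 10 comparisons by edgeR with all libraries. It was at 5529, 4918, 4398 and 4386 CPM in healthy libraries and at 3228, 3439 and 2628 CPM at acute 24 h, with no overlap but a difference of -0.63 ± 0.37 (adjusted p 0.197). The chronic 72 h libraries, at 6415, 6405, 7492 and 11259 CPM, lay above all healthy ones (0.71 ± 0.34, adjusted p 0.144). With depth class as a term that difference was 1.00, with an adjusted p of 0.0494. Chronic 24 h replicate 1 was at 1600.0 CPM, far below the 5229.9, 5443 and 5734 CPM of the others. Chronic 14 d libraries fell into a pair at 2209 and 1982 CPM and a pair at 5698 and 4726 CPM.

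As shares of the summed length-scaled levels of the 7 binding proteins, Igfbp7 made up 84.6% ± 3.11 (SD, n = 4) in healthy HSCs and between 71.3% and 85.8% in the group means. The share of Igfbp4 was 5.09% ± 0.939 (SD, n = 4) in healthy, 1.54% ± 0.149 (SD, n = 3) at acute 24 h, 1.88% ± 0.809 (SD, n = 4) at acute 72 h and 8.31% ± 0.742 (SD, n = 4) at chronic 72 h. At acute 24 h the highest share of Igfbp4 was 1.63% and in healthy the lowest was 3.96%, so the groups did not overlap. The share of Igfbp3 was 10.1% ± 2.27 (SD, n = 4) in healthy and 18.1% ± 6.55 (SD, n = 4) at chronic 14 d. It was 5.78% ± 6.47 (SD, n = 4) at chronic 24 h, a spread set by replicate 1 at 15.4%, the library with little Igfbp7. No test was run on shares.

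The comparisons with healthy asked which members differed after injury and after recovery, where a call required both an adjusted p under 0.05 and more than a 2-fold change. In the chronic 24 h group 2 of the 9 members were called higher (Igf1 and Igfbp1) and 1 lower (Igfbp3). Of all genes tested, 11.2% were called higher, 8.11% lower and 19.3% either way. The median difference of the members was 0.28 and that of all genes -0.03 (log2). At chronic 72 h 2 were called higher (Igf1 and Igfbp4) and 0 lower, beside 7.88% and 4.20% of all genes and 12.1% either way. The members' median was 1.46 and that of all genes 0.00. Of the 10 macrophage markers 8 were called higher than in healthy at each of these hours and 0 lower, and of the 10 hepatocyte markers 1 was called lower at 24 h and 1 higher at 72 h. Of the 8 mesothelial and portal fibroblast markers 4 were called higher at each of these hours and 0 lower. Their part in the members' differences was not tested. At chronic 14 d 0 members were called, against 4.55% of genes higher, 1.17% lower and 5.72% either way. By edgeR 5 of the 9 had an unadjusted p under 0.05, and DESeq2 called 1 (Igfbp5, 1.68, adjusted p 0.0377).

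In the acute course 0 members were called higher and 2 lower (Igfbp2 and Igfbp4) at 24 h, where 9.41% of all genes were called higher, 12.5% lower and 22.0% either way. The members' median was -1.52 against -0.12 over all genes. At acute 72 h 0 were called higher and 2 lower (Igfbp4 and Igfbp5), beside 8.23% of genes higher, 4.33% lower and 12.6% either way. At acute 7 d 0 of 9 were called by edgeR or by DESeq2, 2 had an unadjusted p under 0.05 in edgeR, and 9.23% of genes were called higher, 5.64% lower and 14.9% either way. The members' median was 0.14 at 72 h and 0.88 at 7 d, against 0.00 and 0.01 over all genes. All of these comparisons share the 4 healthy libraries, so they are not independent of each other.

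**Figure D3:**
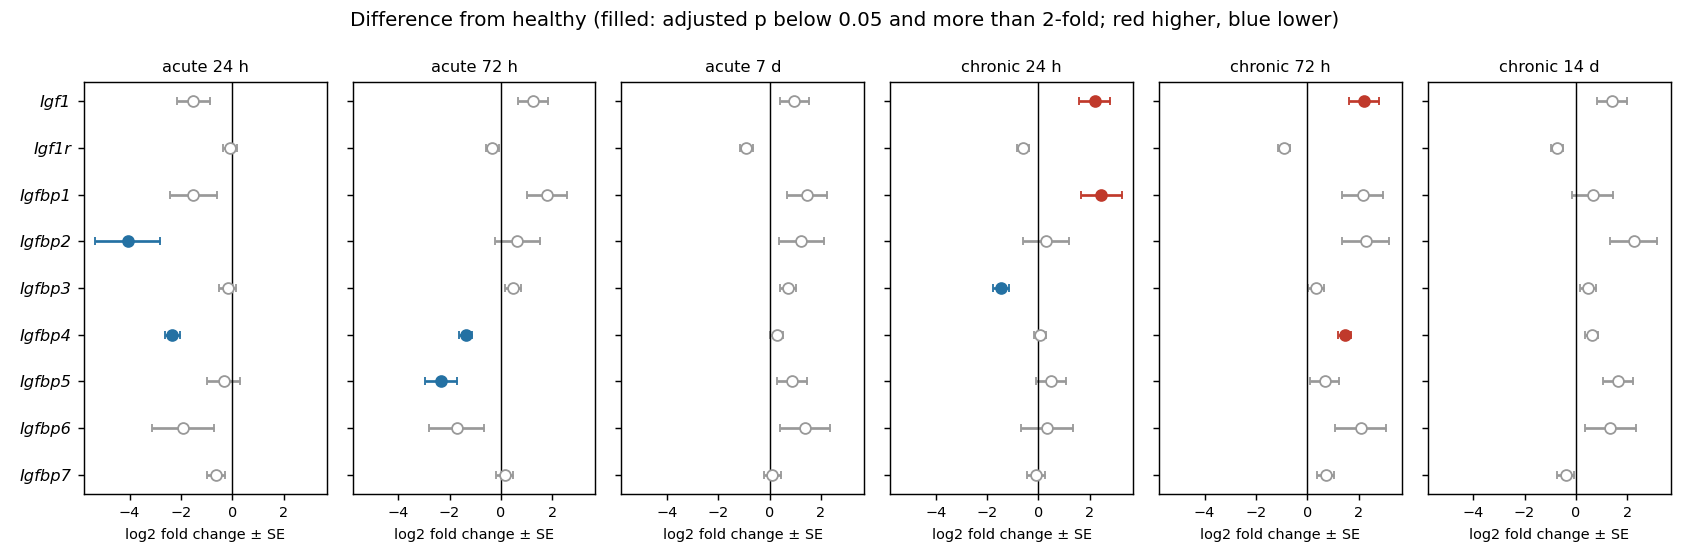
Log2 fold change against healthy (horizontal axis, bars ± SE from the edgeR fit) of the 9 members in the 6 injured and recovered groups. Filled points passed an adjusted p of 0.05 and 2-fold: Igf1 and Igfbp1 higher and Igfbp3 lower at chronic 24 h, Igf1 and Igfbp4 higher at chronic 72 h, Igfbp2 and Igfbp4 lower at acute 24 h, and Igfbp4 and Igfbp5 lower at acute 72 h.

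Within each course, the late group was compared with the first day after injection. From chronic 24 h to chronic 14 d 1 of the 9 members was called higher (Igfbp3) and 0 lower, beside 6.65% of genes higher, 6.11% lower and 12.8% either way. Igf1 differed by -0.77 ± 0.57 over this interval, with an adjusted p of 0.369. Of the markers, 6 of 10 for hepatocytes, 7 of 8 for endothelial cells and 3 of 8 for stellate cells were called higher with Igfbp3 and 0 of them lower, and their part was not tested. From acute 24 h to acute 7 d 5 members were called higher (Igf1, Igfbp1, Igfbp2, Igfbp4 and Igfbp6) and 0 lower. In that comparison 17.8% of all genes were called higher, 9.24% lower and 27% either way. The median of the members was 2.48 and that of all genes 0.02. Igfbp3 also rose in this interval but by less than 2-fold (0.88 ± 0.34, adjusted p 0.0433), with no overlap between groups. Of the 10 macrophage markers 9 were called higher in it, and of the 10 hepatocyte markers 8. Their part in the members' rise was not tested.

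Repeated and first injury were compared at the same hour after the last injection, which tests whether the responses differ. At 24 h 4 of the 9 members were higher after repeated injury (Igf1, Igfbp1, Igfbp2 and Igfbp4) and 1 lower (Igfbp3), beside 10.9% of all genes higher, 3.05% lower and 13.9% either way. Igf1 was 13-fold higher (3.70 ± 0.72, adjusted p 0.000681), with 205 to 400.3 CPM against 17.3 to 32.8. Igfbp4 was 5.26-fold higher (2.39 ± 0.29, adjusted p 3.13e-06). Igfbp3 was 2.43-fold lower (-1.28 ± 0.33, adjusted p 0.00773), and the lowest acute library, at 1165 CPM, was above the highest chronic one, at 985 CPM. This call was lost in a fit of the 2 groups alone (-1.26, adjusted p 0.0679). These groups did not overlap in Igf1, Igfbp3 and Igfbp4, nor in Igf1r, which was not called (-0.52 ± 0.26, adjusted p 0.165). Igfbp1 differed by 3.96 ± 0.99 (adjusted p 0.00565) without overlap, whereas Igfbp2, at 4.35 ± 1.29 (adjusted p 0.018), overlapped. Within the libraries of higher depth Igfbp1 and Igfbp2 lost their calls (2.86 and 1.79, adjusted p 0.0778 and 0.365). Here 6 of the 10 hepatocyte markers and 7 of the 10 macrophage markers were called higher after repeated injury and 0 of each lower.

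At 72 h 3 members were higher after repeated injury (Igfbp4, Igfbp5 and Igfbp6) and 0 lower, beside 5.11% of genes higher, 4.01% lower and 9.12% either way. Igfbp4 differed by 2.84 ± 0.26, or 7.17-fold (adjusted p 3.05e-07), and its lowest chronic 72 h library, at 2057 CPM, was far above the highest acute one, at 519 CPM. Igfbp5 differed by 3.01 ± 0.64 (adjusted p 0.00256), with 8.12 to 19.3 CPM against 0.569 to 2.68. Igfbp6 differed by 3.82 ± 1.10 (adjusted p 0.0206), a call that was lost without acute 72 h replicate 1 (adjusted p 0.0555) or replicate 3 (0.050). The Igf1 libraries did not overlap either, with 248 to 490.0 against 109.5 to 228 CPM, but the difference of 0.96 ± 0.57 had an adjusted p of 0.284. Igfbp3, with an adjusted p of 0.88, differed by -0.10 ± 0.31. In this comparison 6 of 10 macrophage, 3 of 10 hepatocyte, 4 of 8 endothelial and 3 of 5 cholangiocyte markers were called higher and 0 of them lower, and their part was not tested.

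**Figure D4:**
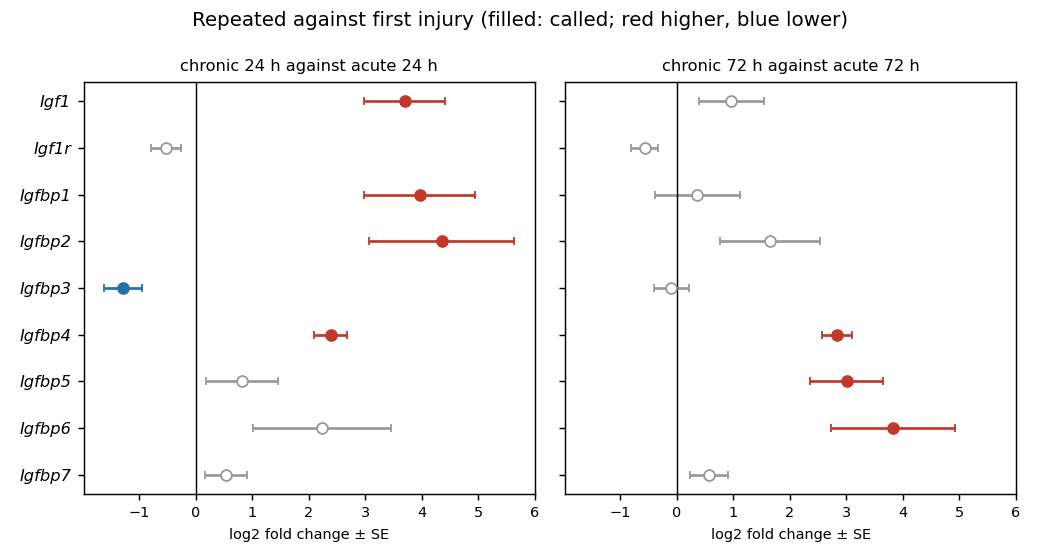
Log2 fold change of chronic against acute libraries (horizontal axis, bars ± SE from the edgeR fit) at 24 h and at 72 h for the 9 members, with filled points for calls. Igfbp4 is called higher at both hours (2.39 and 2.84), Igf1 (3.70) and Igfbp3 (-1.28) are called at 24 h, and Igfbp5 (3.01) and Igfbp6 (3.82) at 72 h.

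Around the 9 members, 33 further genes of the pathway were followed, of which 30 passed the filter. Igf2, Pappa2 and Igfbpl1 did not. Against healthy, 6 of the 30 were called higher and 4 lower at chronic 24 h, beside 11.2% and 8.11% of all genes. At chronic 72 h 5 and 1 were called (7.88% and 4.20% of all genes), and at chronic 14 d 2 and 0 (4.55% and 1.17%). In the acute course 5 were called higher and 9 lower at 24 h (9.41% and 12.5% of all genes). At 72 h 2 and 1 were called (8.23% and 4.33%), and at 7 d 3 and 1 (9.23% and 5.64%). The median of the list at acute 24 h was -0.66, against -0.12 over all genes. In all, 22 genes of the list were called in at least 1 of the 10 comparisons.

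Among receptors and carriers, Igfals, which encodes the acid-labile subunit that joins IGF1 and IGFBP3 in blood and is known as a hepatocyte product, had the widest changes. It was at 7.42 to 43.6 CPM in healthy, at 0 to 0.533 at acute 24 h (-6.34, adjusted p 1.36e-05), at 0.876 to 3.98 at chronic 24 h (-3.31, adjusted p 0.000431) and at 17.1 to 31.5 at acute 7 d. Igf2r, the receptor that clears IGF2, fell at acute 24 h (-1.47, adjusted p 0.000145) and at chronic 72 h (-1.09, adjusted p 0.00191). Insr, the insulin receptor, fell at chronic 24 h (-1.16, adjusted p 0.00639) and at acute 7 d (-1.09, adjusted p 0.0129). Of the growth hormone axis, Ghr, the growth hormone receptor, rose from acute 24 h to acute 7 d (1.41, adjusted p 0.000492), and the feedback inhibitor Socs2 was higher at acute 24 h than in healthy (1.08, adjusted p 0.0033). Cish, another such inhibitor, was lower at chronic 24 h (-1.34, adjusted p 0.037).

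Of the 4 tested genes whose products cut the binding proteins or inhibit that cleavage, 2 were called higher at chronic 24 h, 2 higher at chronic 72 h, and 1 higher and 1 lower at acute 24 h, all against healthy. Of all genes, 11.2%, 7.88% and 9.41% were called higher in these comparisons, and 12.5% lower at acute 24 h. Pappa, the protease of IGFBP4, was at 0 to 3.79 CPM in healthy and at 7.19 to 20.8 CPM at chronic 24 h (2.94, adjusted p 0.000651), and it fell again by chronic 14 d (-2.16, adjusted p 0.00994). Stc1, an inhibitor of PAPP-A, was at 0 to 0.815 CPM in healthy and at 9.78 to 18.8 CPM at acute 24 h (5.87, adjusted p 0.000168), and was also higher at chronic 24 h (3.41, adjusted p 0.0116). Stc2, a related inhibitor, was higher at chronic 72 h (2.67, adjusted p 0.0218). Htra1, a secreted protease that cuts IGFBP5, fell at acute 24 h (-1.20, adjusted p 0.0155) and rose at chronic 72 h (1.19, adjusted p 0.0148). Acute 24 h combined low Igfbp4 with high Stc1, and chronic 24 h Igfbp4 at its healthy level with both Pappa and Stc1 above healthy.

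Below the receptor, 5 of 12 signalling genes were lower and 1 higher at acute 24 h, beside 12.5% and 9.41% of all genes. Irs1 (-1.72), Grb10 (-1.06), Grb14 (-1.90), Pik3ca (-1.05) and Foxo1 (-1.24) fell, with adjusted p of 0.000716 to 0.0225. Irs2, an adaptor of the insulin and IGF1 receptors, rose from 372 to 688 CPM to 1216 to 1506 CPM (1.28, adjusted p 0.000333). From acute 24 h to acute 7 d Irs2 fell (-1.68, adjusted p 1.49e-05) while Irs1, Grb10 and Grb14 rose. Pik3r1, a regulatory subunit of PI3-kinase, was lower at chronic 24 h (-1.01, adjusted p 0.0077).

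Proteins that share the IGF-binding domain with the family included the most induced genes of the list. Ccn2, which encodes connective tissue growth factor, was at 108 to 594 CPM in healthy, at 3238 to 5495 CPM at acute 24 h (3.70, adjusted p 0.00252) and at 1719 to 5849 CPM at chronic 24 h (3.23, adjusted p 0.00553). Ccn3 was at 0 to 0.589 CPM in healthy and was higher in all 6 groups, with 7.14 at chronic 24 h (adjusted p 5.3e-06) as its largest difference. Ccn1 was higher at chronic 24 h (1.14, adjusted p 0.00198). Kazald1, a secreted protein with the same domain, was at 17.0 to 21.1 CPM in healthy, fell to 3.02 to 4.34 CPM at acute 24 h (-2.26, adjusted p 8.65e-06) and rose at chronic 72 h (1.21, adjusted p 0.00221), the same calls as Igfbp4 had in these 2 comparisons. Esm1, at 0 to 0.421 CPM in healthy, was higher at chronic 24 h (3.54, adjusted p 0.0054), chronic 72 h (4.00, adjusted p 0.00335), chronic 14 d (4.59, adjusted p 0.00293) and acute 7 d (4.24, adjusted p 0.00177), at few counts.

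**Figure D5:**
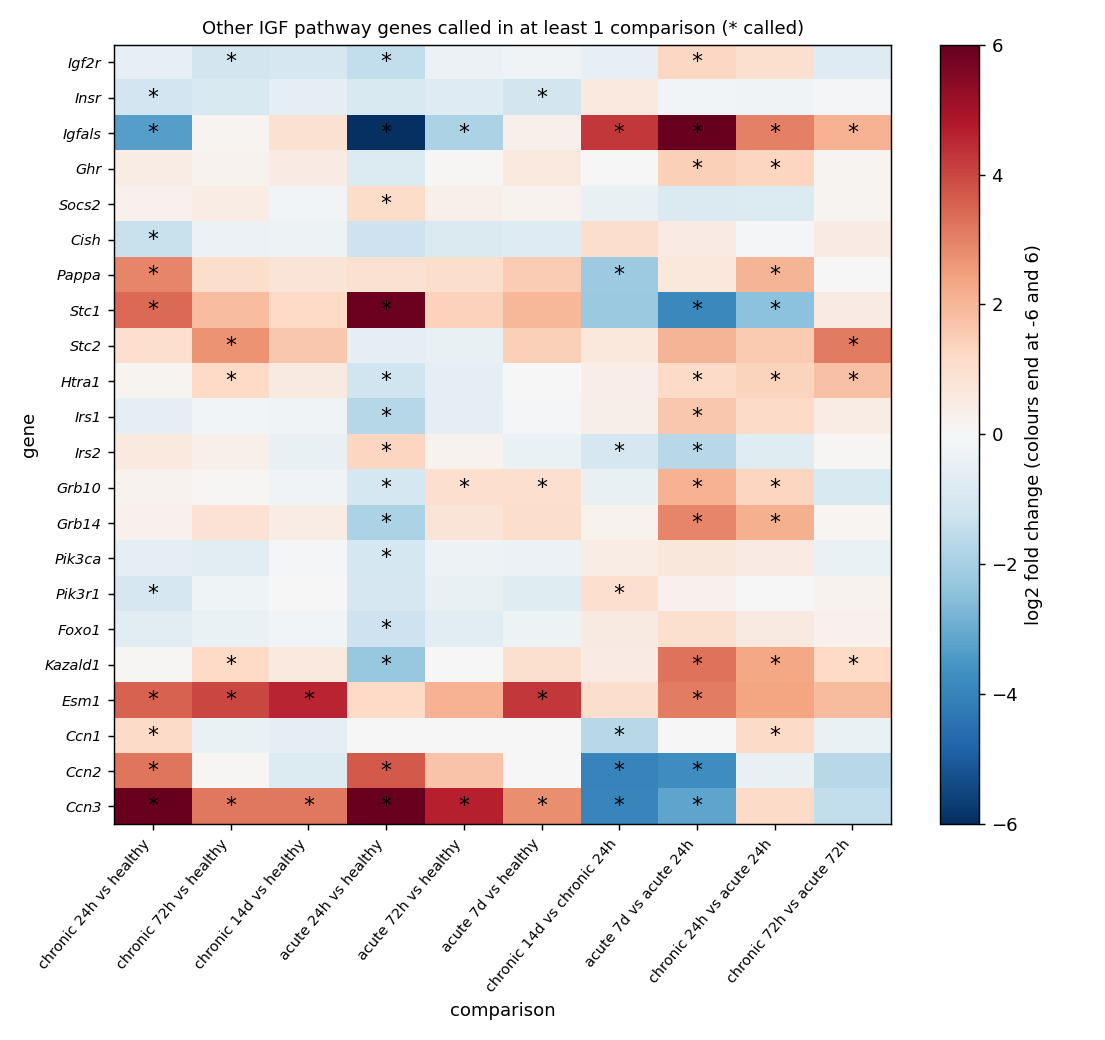
Log2 fold change (colour, red higher and blue lower, with the scale ending at 6 in either direction) of the 22 pathway genes called in at least 1 of the 10 comparisons, genes in the vertical and comparisons in the horizontal direction, with an asterisk for a call. The acute 24 h column holds 9 lower calls, among them Igfals at -6.34, and 5 higher ones, among them Stc1 at 5.87. Of all genes, 12.5% were called lower and 9.41% higher in that comparison.

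The genes most like each member were found by Pearson's r of log2 CPM over the 27 libraries among the 10293 genes whose mean log2 CPM reached 3. These values are descriptions, since the libraries share their groups, depth classes and content of other cells. Igfbp2 had the closest match of the family, with Hrg, a plasma glycoprotein gene (r = 0.967), Stard10 (0.956) and Rbp4, the plasma retinol carrier (0.954). Igfbp1 was most like the keratin genes Krt8 (0.87) and Krt18 (0.855) and the apolipoprotein gene Apoa4 (0.853). Igfbp4 was most like Clmp (0.93), Ypel2 (0.929) and Clec1a (0.925), and Igf1r most like Trip11 (0.917), Birc6 (0.911) and Dst (0.907). The matches of Igf1 were looser, with the receptor gene Ephb2 (0.778), Lgi2 (0.773) and the collagen gene Col8a2 (0.764). Igfbp3 was nearest to Kiz (0.797), Abtb1 (0.763) and Pex7 (0.756), Igfbp5 to Slco2a1 (0.831), Nrp2 (0.813) and Smox (0.809), Igfbp6 to N4bp2l1 (0.846), Stard5 (0.835) and Ralgds (0.797), and Igfbp7 to Clns1a (0.743), Lum (0.675) and Hsbp1 (0.671). Among the members themselves the highest r was 0.744, between Igfbp4 and Igfbp6, and the neighbours Igfbp1 and Igfbp3 had an r of -0.037.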

How the data were processed

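RNA of sorted HSCs was sequenced by the authors as single-end reads of 75 bp on a NextSeq 500. Per the labels and methods, reads were checked and trimmed with FastQC, mapped with STAR to GRCm38.p6 and assembled with StringTie, whose versions, strand setting and annotation are not given in the sources used here. What the authors deposited is a table of raw counts, with whole numbers, a line for each Ensembl gene and a column for each library, and 0 columns were left unmatched. Each repeat was an individual experiment per the study's methods. Symbols and exon lengths came from GENCODE M21, which holds 53274 of 53379 gene IDs. Groups were taken from the labels.

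Counts were analysed with edgeR 4.0.16 in R 4.3.3: filterByExpr by group (18758 genes), TMM scaling and 1 robust quasi-likelihood fit with a mean per group over all 27 libraries, from which 10 comparisons were drawn. Adjusted p-values are Benjamini-Hochberg values over all genes tested. Standard errors are the log2 fold change divided by the root of F. CPM used TMM-scaled library totals, and log2 CPM for likeness a prior count of 2. Counting limits the scarce genes: libraries held 0 to 11 counts of Igfbp2 and 0 to 8 of Igfbp6 at acute 24 h, and 7 to 31 of Igfbp5 at acute 72 h.

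The 9 members, the pathway and marker lists and the comparisons were chosen with earlier results of these data known. The text names the members, pathway genes called in at least 1 comparison, some marker genes of the cell type lists, and for each member the 3 genes with the highest r. A further stellate marker is not reported here. Polr2b was named in addition because it overlaps Igfbp7. The procedure was tested on simulated data. Alternatives were DESeq2 1.42.0 and its size factors, library size alone, no filter, a mean of 1 CPM as filter, an adjusted p of 0.1, no fold minimum, a fit of the 2 groups compared, a replicate block, depth class as a term or the higher class only, and each library left out in turn. The lower class only was added after the data had been seen. Figures used Python 3.11.15, pandas 2.3.3 and matplotlib 3.10.9.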

Additional observations from a re-analysis of the deposited data

Results flagged for a closer look

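In 3 of 54 groups of 4 libraries the highest or lowest level of a member was far from the other 3 by Dixon's test, where chance gives about 1 in 20. Healthy replicate 4 was the highest healthy library in Igf1 (156 CPM against 34.3 to 51.0) and in Igfbp1 (11.4 against 0.634 to 2.27), and it also had the highest hepatocyte marker sum of the healthy libraries, 3193 CPM. Chronic 24 h replicate 1 was low in Igfbp7 (1600.0 CPM against 5229.9 to 5734) and is a library of lower depth, at 6.95 M (M, 1000000 counts). The part of depth was not tested.

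The response differed between repeated and first injury, by edgeR's test of the chronic against the acute group at the same hour, in 8 cases. At 24 h these were Igf1 (log2 difference 3.70, higher in 4 of 4 chronic libraries than in any acute one), Igfbp1 (3.96), Igfbp2 (4.35, with overlap), Igfbp3 (-1.28) and Igfbp4 (2.39). At 72 h they were Igfbp4 (2.84), Igfbp5 (3.01) and Igfbp6 (3.82). Mice of the 2 courses also differed in age and in the number of injections, which cannot be told apart here.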

How the results depend on the processing

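The calls of Igfbp3 and Igfbp4 against healthy, of Igf1 at chronic 72 h and of Igfbp4 in both comparisons of repeated with first injury held under every alternative run. The number of members called was 2 higher at chronic 24 h against healthy and became 1 with no filter, with depth class as a term and with only the 2 groups compared, and 0 within the higher depth class. At chronic 72 h it was 2 higher and became 4 at an adjusted p of 0.1 and with DESeq2. There 0 members were lower, and 1 (Igf1r) with no fold minimum, with depth class as a term and within the higher depth class. At chronic 14 d 0 became 1 higher at an adjusted p of 0.1 and with DESeq2. With no fold minimum 1 (Igf1r) was lower at acute 7 d against healthy and against acute 24 h. With only the 2 groups compared 1 instead of 2 was lower at acute 24 h and 0 instead of 1 (Igfbp3) in chronic against acute 24 h. Within the higher depth class 2 instead of 4 were higher in that comparison. Within the lower class, an alternative chosen after seeing the data, 2 instead of 0 (Igf1 and Igfbp1) were lower from chronic 24 h to 14 d.

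With each library left out in turn, 1 to 2 members were higher at chronic 24 h against healthy, 2 to 4 higher and 0 to 1 lower at chronic 72 h, and 0 to 2 higher at chronic 14 d. In the acute course 1 to 2 were lower at 24 h, 0 to 2 higher at 72 h, and 0 to 2 higher and 0 to 1 lower at 7 d. From chronic 24 h to 14 d 1 to 2 were higher, 2 (with Igfbp2) without chronic 24 h replicate 1. Without healthy replicate 4 the counts were 4 higher and 1 lower at chronic 72 h, 2 higher at chronic 14 d, 1 lower at acute 24 h, 2 higher at acute 72 h, and 2 higher and 1 lower at acute 7 d. The cause was not tested.

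Changes of sign were limited to differences that were not called. At chronic 24 h against healthy (log2 scale), Igfbp2 was 0.28 and became -1.15 with depth class as a term, -2.26 within the higher depth class and -0.81 to 1.01 with libraries left out. Igfbp4 (0.06) became -0.30 within the higher class and -0.16 to 0.19 with libraries left out, Igfbp6 (0.33) -0.41 and -0.086 to 0.78, and Igfbp7 (-0.10) 0.23 and -0.24 to 0.19, and 0.18 with depth class as a term. With that term Igfbp3 at chronic 14 d was -0.064, and Igfbp7 was 0.23 there and 0.057 from chronic 24 h to 14 d, the last 0.15 within the lower class. Igf1r from chronic 24 h to 14 d became 0.037 with library size alone. With libraries left out, Igf1r at acute 24 h ranged from -0.34 to 0.083, Igfbp7 at acute 72 h from -0.071 to 0.26, and Igfbp3 in chronic against acute 72 h from -0.30 to 0.20.

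Libraries with the same replicate number did not deviate together: r ranged from -0.172 to 0.172 over 37 pairs, was above 0.1 in 9, and was highest for the own number in 13. With the replicate block no count of members called moved by over 1.5 times, and 1 call was lost, that of Igfbp6 from acute 24 h to 7 d (3.21, adjusted p 0.0543). Replicates of a group differed by 17.1 to 90.8 times the variance of counting alone in 39 pairs, so none was counted as a repeat. Group size (3 or 4 libraries) and the low counts of Igfbp2, Igfbp5 and Igfbp6 limit what could be called.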
